A study of Mus musculus with 22 samples.

Results

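The genes described here are 8 members of the interleukin-6 (IL-6) family pathway: the cytokine genes Il6 and Lif, the receptor genes Il6ra, Il6st, Lifr and Osmr, the transcription factor gene Stat3 and the inhibitor gene Socs3. Their open chromatin was read from the peaks of 22 ATAC-seq libraries, an assay in which a transposase cuts accessible DNA. A peak was assigned to a gene when its summit lay in the gene body or within 20 kb on either side on the GRCm38 build. The 8 loci held 209 of the 563375 windows, each reaching 250 bp to either side of a summit, that were placed over the peaks of all libraries, and they are 8 of 20015 protein-coding gene loci that held a peak. The libraries came from hippocampus and frontal cortex of the same 11 adult male wild-type C57BL/6J mice. Every mouse, controls included, had been given corticosterone (CORT) in its water for 7 days, diisopropyl fluorophosphate (DFP, an organophosphate that inhibits acetylcholinesterase) by injection on day 8, and further intermittent CORT over 5 weeks, as a model of Gulf War Illness. On the last day 2 mice received saline and were sampled at 6 h, and 9 received bacterial lipopolysaccharide (LPS), with 3 mice sampled at each of 6, 12 and 24 h. No group without CORT and DFP is analysed here, and the submitters dropped a further saline mouse for its shallow sequencing. The tissues were whole pieces, so that a change in the share of a cell type and a change of accessibility within cells cannot be told apart.

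IL-6 family cytokines signal through receptor complexes that share the subunit gp130, the product of Il6st. IL-6 binds the receptor encoded by Il6ra before it engages gp130, leukaemia inhibitory factor (Lif) uses the Lifr product with gp130, and oncostatin M uses the Osmr product with gp130. Janus kinases bound to these receptors phosphorylate STAT3, which enters the nucleus and activates target genes, Socs3 among them, and the SOCS3 protein binds gp130 and its kinases and dampens the signal. In the brain the pathway is known for its part in sickness responses to LPS and in the reactive state of astrocytes.

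Peak lists ranged from 204561 to 307140 distinct intervals per library, over 81.0 to 113 Mb. The mouse saline replicate 2 stood apart in both tissues. Over the windows of the 50000 strongest peaks, its mean correlation with the other libraries of its tissue was 0.383 in hippocampus, where the others had 0.464 to 0.505, and 0.422 in frontal cortex, where the others had 0.522 to 0.569. It is 1 of the 2 saline mice, and several results that rest on it are given with and without it. The single windows named below as switching with LPS are given only with it. Loci of tissue marker genes followed the tissue labels: 4 of 6 hippocampal marker loci had more peaks in hippocampus and none in cortex, and 5 of 6 cortical marker loci had more in cortex and none in hippocampus. Summed over each list and per 100000 intervals, the hippocampal markers had 72.5 to 95.7 peaks in hippocampus and 41.1 to 50.0 in cortex, and the cortical markers had 40.2 to 48.2 in hippocampus and 68.3 to 76.3 in cortex.

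The chromatin at the starts of the members fell into an open and a mostly closed group, and the promoters of Il6, Socs3, Lif and Osmr are printed to show both. Each is 300 bases from RefSeq (GRCm38.p6), from 250 bases before the start to 50 after it, 5′ to 3′ on the gene's strand. Capitals mark matches to motifs searched on both strands.
Il6, chr5:30012864-30013163, plus strand: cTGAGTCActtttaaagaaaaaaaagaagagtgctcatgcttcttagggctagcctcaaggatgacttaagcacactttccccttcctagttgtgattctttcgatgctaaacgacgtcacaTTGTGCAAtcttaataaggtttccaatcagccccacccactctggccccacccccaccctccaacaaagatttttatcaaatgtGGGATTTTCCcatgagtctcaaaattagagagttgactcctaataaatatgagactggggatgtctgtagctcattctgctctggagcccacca
Socs3, chr11:117969317-117969616, minus strand: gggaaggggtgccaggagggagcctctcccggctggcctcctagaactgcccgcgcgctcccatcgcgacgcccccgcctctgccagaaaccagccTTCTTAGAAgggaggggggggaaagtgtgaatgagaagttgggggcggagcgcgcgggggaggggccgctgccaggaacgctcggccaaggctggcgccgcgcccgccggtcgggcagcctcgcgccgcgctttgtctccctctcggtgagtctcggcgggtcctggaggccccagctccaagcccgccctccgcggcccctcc
Lif, chr11:4257318-4257617, plus strand: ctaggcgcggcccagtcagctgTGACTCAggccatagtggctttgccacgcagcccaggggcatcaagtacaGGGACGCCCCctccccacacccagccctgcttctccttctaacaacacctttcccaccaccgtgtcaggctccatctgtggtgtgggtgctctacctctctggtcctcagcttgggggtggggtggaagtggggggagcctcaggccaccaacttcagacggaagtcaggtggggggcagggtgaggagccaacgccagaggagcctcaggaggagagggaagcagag
Osmr, chr15:6874264-6874563, minus strand: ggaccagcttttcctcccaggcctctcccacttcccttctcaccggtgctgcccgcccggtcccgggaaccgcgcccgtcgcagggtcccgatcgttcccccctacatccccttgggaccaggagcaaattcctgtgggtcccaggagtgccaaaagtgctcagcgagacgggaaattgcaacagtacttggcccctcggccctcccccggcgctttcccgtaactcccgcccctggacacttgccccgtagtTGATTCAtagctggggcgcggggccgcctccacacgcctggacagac
A peak covered at least 150 of the 300 bases in all 22 libraries at Il6, Il6ra, Il6st, Stat3, Socs3 and the first of the 2 listed starts of Lifr. Of all 32851 listed mouse promoters, 39.7% were covered in this way. No library had such a peak at Lif or at the second Lifr start, and at Osmr 5 of 11 hippocampus and 2 of 11 cortex libraries had one. Promoters without such a peak in any library made up 44.8% of all.

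The open Il6 promoter is poor in G and C for an open member. Its G+C share was 44.0%, at the 19.2th percentile of all listed promoters, and it held 3 CG pairs, where the median promoter had 52.7% and 7. The open promoters of Il6ra, Il6st, Lifr (first start), Stat3 and Socs3 ranged from 60.7% to 81.3%. The mostly closed promoters of Lif and Osmr had 63.7% and 66.0%, so base composition did not sort the open from the closed members.

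Among the motifs searched, Il6 held a kappaB match (GGGATTTTCC, at -44 from the start), a C/EBP match (TTGTGCAA, at -128, the reverse complement of TTGCNNAA) and an AP-1 match (TGAGTCA, at -249). Lif held a kappaB match (GGGACGCCCC, at -178) and an AP-1 match (TGACTCA, at -228). Socs3 held a STAT match (TTCTTAGAA, at -154), and Osmr an AP-1 match (TGATTCA, 3 bases after the start). The matches did not overlap each other. The letters searched were TTCNNNGAA for STAT, found in 8.30% of all promoters, TGANTCA for AP-1 (7.81%), TTGCNNAA for C/EBP (10.8%) and the kappaB consensus (8.46%). TGACGTCA for CRE (1.79% of promoters) and ACANNNTGT for the glucocorticoid receptor (6.85%) matched none of the members. No motif of this set matched in the promoters of Il6ra, Il6st, Lifr or Stat3.

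Between tissues, Il6ra and Osmr had more peaks in hippocampus, and Stat3 and Socs3 had more in frontal cortex. Il6, Lif, Il6st and Lifr did not pass the test. Peaks were counted per locus and per 100000 intervals of the library, which sets each count against the length of its list. Whether this takes out all effect of list length at a locus was not tested. The scaled numbers were compared by a two-sided permutation test with Benjamini-Hochberg adjustment over all 20015 loci at 0.05. Of all loci, 16.0% had more peaks in hippocampus and 25.8% more in cortex, so 2 of 8 members in each direction is close to the share over the genome. The median difference, hippocampus minus cortex, was 0.0661 over the members and -0.131 over all loci. With the animal as a replicate block, the same 4 genes passed the test.

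**Figure D1:**
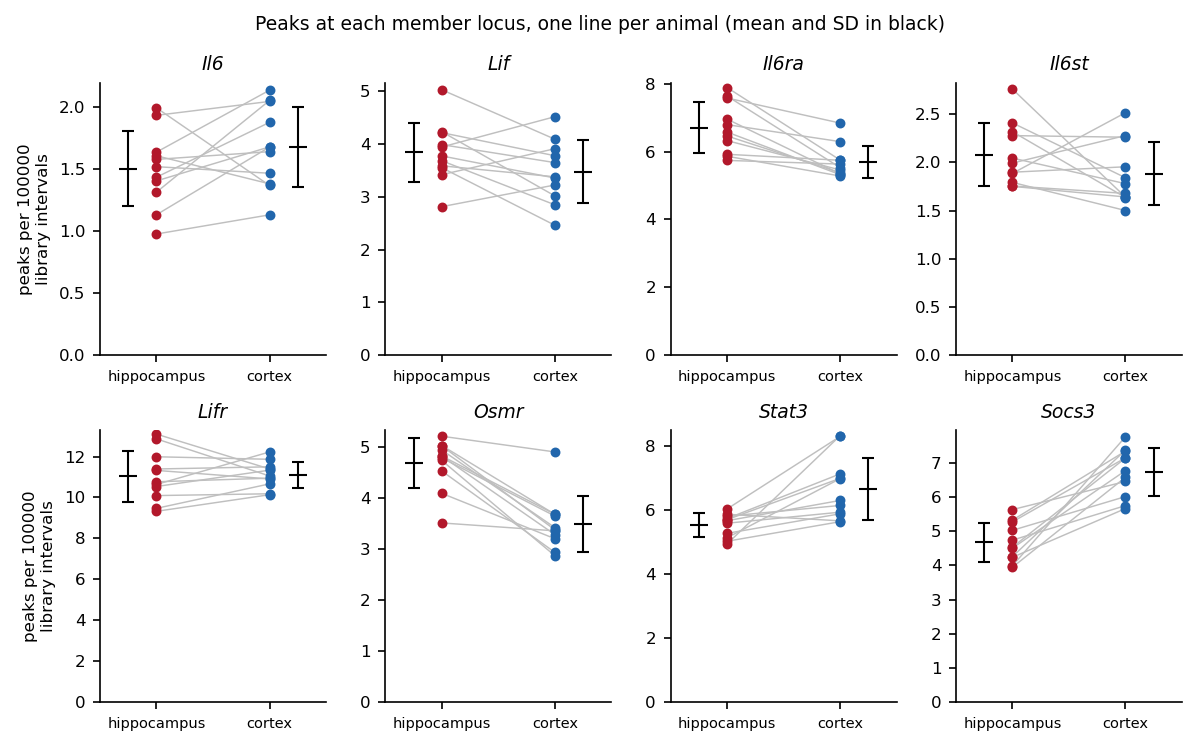
Peaks per locus per 100000 intervals of the library (vertical axes) for the 8 members, with 1 point for each of the 11 hippocampus and 11 frontal cortex libraries and bars for the mean and SD. The points of the tissues are apart for Socs3 (3.94 to 5.63 in hippocampus, 5.66 to 7.75 in cortex) and overlap for the other members.

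Single windows were then compared between the tissues. A window counted as present in a library when it shared with a peak 50% or more of the shorter of both. Of the 209 windows at the members, 43 were present in all 22 libraries and 35 in 1 library. Of the 117 that were present in 2 to 20 libraries and could be tested, 20 (17.1%) were present more often in hippocampus and 15 (12.8%) more often in cortex (Fisher's exact test, adjusted over 327334 windows). Over all windows tested these shares were 18.3% and 12.2%. The test reads presence only, and weak peaks count as much as strong ones. When only the 50000 strongest peaks of each library were used, 11 of 32 tested member windows (34.4%) were present more often in hippocampus and 1 (3.13%) in cortex, against 18.5% and 19.0% of 79767 windows over the genome. Without the mouse saline replicate 2 they were 9 (30.0%) and 1 (3.33%) of 30. Of the 11 windows, 4 lay in the body of Osmr, 5 at Lifr, 1 at Il6 and 1 at Stat3. The 1 for cortex also lay at Lifr. All of these windows were chosen after their values were seen, except the strongest window of Osmr and a Lifr window (chr15:7084265-7084765) that was also called by presence.

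Il6 encodes the founding cytokine of the family. The gene lies at chr5:30013114-30019975 on the plus strand, within a longer transcript gene, A230098N10Rik, and reads here carry no strand. Its locus held 3 to 5 peaks in the hippocampus libraries (median 4) and 3 to 6 in the cortex libraries (median 4), and the tissues overlapped. Scaled, the means were 1.50 ± 0.304 (SD, n = 11) and 1.68 ± 0.325 (SD, n = 11) per 100000 intervals, and the difference of -0.175 did not pass the test (permutation test, adjusted p = 0.310). It passed in opposite directions under other settings. With a flank of 5 kb it was -0.317 (permutation test, adjusted p = 0.0126). Over the 50000 strongest peaks, scaled to 100000 of those peaks, it was 1.09 (permutation test, adjusted p = 0.0403). At 0.854 peaks per 10 kb, Il6 was sparser than the median locus, at 1.40.

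The strongest window of Il6 was the one at its start, 0.176 kb inside the gene, and it was open in all 22 libraries. Its rank among the peaks of a library, where rank 1 is the strongest, ran from 7914 to 15172 in hippocampus and from 8675 to 21440 in cortex. A window 12.0 kb before the start (chr5:30000896-30001396) was present in 11 of 11 hippocampus and 5 of 11 cortex libraries (Fisher's exact test, adjusted p = 0.0406), but not past the test with the animal as a block (adjusted p = 0.0989). A further window, 5.69 kb before the start, was present in every library but stronger in hippocampus: its rank was 29527 to 85026 there and 110961 to 202796 in cortex. It was among the 50000 strongest in 6 hippocampus and no cortex libraries (Fisher's exact test, adjusted p = 0.0330, and 0.0726 without the mouse saline replicate 2). The locus call of Il6 over the 50000 strongest peaks rests on this window alone. The start was among those peaks in all 22 libraries and the other Il6 windows were in none.

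Lif encodes a cytokine that, in the nervous system, is known for its action on glia and neural precursors. It lies at chr11:4257568-4272514 on the plus strand. Its locus held 7 to 13 peaks in hippocampus (median 10) and 6 to 11 in cortex (median 8), and the scaled means of 3.84 ± 0.561 and 3.48 ± 0.591 (SD, n = 11 each) did not differ past the test (permutation test, adjusted p = 0.249). With a flank of 5 kb the difference was 0.756, higher in hippocampus, and passed (permutation test, adjusted p = 0.00100). Its start was closed or nearly so, as the window nearest to it had a peak in no hippocampus and 2 cortex libraries. The strongest window, 1.40 kb into the gene, was open in all 22 libraries but ranked only from 48255 to 108223 over both tissues.

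Of 10 windows tested at Lif, 3 (30.0%) were present more often in hippocampus and 2 (20.0%) more often in cortex. Over all windows tested the shares were 18.3% and 12.2%. A window 5.31 kb before the start (chr11:4252012-4252512) had a peak in 1 hippocampus and 11 cortex libraries (Fisher's exact test, adjusted p = 0.000297). Another at chr11:4285075-4285575, in the flank after the gene and next to the start of Gm11958, had a peak in no hippocampus and 11 cortex libraries (Fisher's exact test, adjusted p = 4.32e-05). In the other direction, windows 12.1 kb before the start (8 and 0 libraries), 3.13 kb into the gene (10 and 2) and 19.0 kb after the start (9 and 0) were present more often in hippocampus. Among the 50000 strongest peaks only the window 5.31 kb before the start could be tested, and it did not pass (Fisher's exact test, adjusted p = 0.585); the other 4 were among them in no library.

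Il6ra encodes the IL-6 receptor subunit that binds the cytokine and does not itself signal. It lies at chr3:89869324-89913196 on the minus strand. Its locus held 15 to 19 peaks in hippocampus (median 18) and 11 to 15 in cortex (median 14), so that the tissues met only at 15. Scaled, the means were 6.70 ± 0.747 and 5.69 ± 0.480 per 100000 intervals (SD, n = 11 each), higher in hippocampus in 11 of 11 mice (permutation test, adjusted p = 0.00569). Over peaks with a -log10 q of 5 or more the difference was -0.170 per 100000 such peaks (permutation test, adjusted p = 0.628). The start and the strongest window, which lies 54.1 kb from it in the flank after the gene, were open in all 22 libraries. Windows in the gene body 40.4 kb (chr3:89872581-89873081, 11 and 3 libraries), 17.8 kb (8 and 0) and 16.7 kb (8 and 0) from the start were present more often in hippocampus (Fisher's exact test, adjusted p = 0.00521 for each).

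Il6st encodes gp130, the signalling subunit that the whole family shares. It lies at chr13:112464070-112506860 on the plus strand and, at 0.604 peaks per 10 kb, had the sparsest locus of the 8. It held 4 to 7 peaks in hippocampus (median 5) and 4 to 6 in cortex (median 4), with a scaled difference of 0.197 (permutation test, adjusted p = 0.268). Over peaks with a -log10 q of 5 or more the difference was 0.635 and passed (permutation test, adjusted p = 0.00560). The start was the strongest window, at ranks from 897 to 4440 over all 22 libraries, and did not separate the tissues. Inside this quiet locus, windows 7.20 kb (chr13:112471015-112471515) and 40.3 kb (chr13:112504090-112504590) into the gene each had a peak in 11 of 11 hippocampus and 0 of 11 cortex libraries (Fisher's exact test, adjusted p = 4.32e-05). Neither was among the 50000 strongest peaks of any library. Windows at and past the end of the gene, 42.9 kb and 46.9 kb from the start, were present more often in cortex (4 and 11, and 2 and 9 libraries), and both lost the call with the animal as a block (exact sign test, adjusted p = 0.0601 for each).

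Lifr encodes the receptor subunit for leukaemia inhibitory factor. At chr15:7090610-7197489 on the plus strand it is the longest of the 8 loci, and it lies 215.642 kb from Osmr. It held 24 to 32 peaks in both tissues, with medians of 30 in hippocampus and 27 in cortex. Scaled, the means of 11.04 ± 1.24 and 11.11 ± 0.646 (SD, n = 11 each) differed by -0.0644 (permutation test, adjusted p = 0.926). Over the 50000 strongest peaks the locus held 12.9 peaks in hippocampus and 9.09 in cortex in the mean, and the difference of 3.82 passed the test (permutation test, adjusted p = 0.0145). By presence, 5 of 31 tested windows (16.1%) were called for hippocampus and 5 (16.1%) for cortex, where 18.3% and 12.2% of all tested windows were. With the animal as a block they were 5 and 3. Windows at chr15:7084265-7084765, before the gene, and at chr15:7163674-7164174, in its body, had a peak in 11 hippocampus and no cortex libraries (Fisher's exact test, adjusted p = 4.32e-05 for each). A window past the end (chr15:7200436-7200936) had a peak in 1 and 11 libraries (Fisher's exact test, adjusted p = 0.000297).

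Near the 3′ end of the Lifr body a pair of neighbouring windows, with summits 794 bp apart, ranked in opposite order in the tissues. Both were chosen after their values were seen, because they passed the test below, so their p-values are descriptive. The window at chr15:7194901-7195401 ranked 13532 to 34411 in the hippocampus libraries and 95001 to 187544 in the 10 cortex libraries that had it. It was among the 50000 strongest in 11 hippocampus and no cortex libraries (Fisher's exact test, adjusted p = 2.95e-05). The window at chr15:7194107-7194607 ranked 61471 to 125950 in hippocampus and 24806 to 67985 in cortex, and was among the 50000 strongest in no hippocampus and 9 cortex libraries (Fisher's exact test, adjusted p = 0.00107). Ranks come from lists of unequal length, whereas the 50000 strongest are the same number in each library. The first window had a peak in 21 of 22 libraries and the second in all 22, so the tissues differed in the strength of these peaks more than in their presence.

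Osmr encodes the oncostatin M receptor subunit, which in the brain is known from astrocytes and endothelial cells. It lies at chr15:6813568-6874968 on the minus strand. Its locus held 10 to 16 peaks in hippocampus (median 12) and 7 to 13 in cortex (median 8), and the highest cortex value belonged to saline replicate 2. Scaled, the means were 4.68 ± 0.487 (SD, n = 11) and 3.49 ± 0.542 (SD, n = 11) per 100000 intervals, a difference of 1.19, higher in hippocampus in 11 of 11 mice (permutation test, adjusted p = 0.00105). Osmr was the member whose call and direction held under all 17 alternatives run for the tissue comparison (adjusted p from 0.000175 to 0.00609). Peaks covered 4447 ± 630 bp of the locus in hippocampus (3585 to 5946) and 2551 ± 724 bp in cortex (1918 to 4472).

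The strong peaks of Osmr lie in the gene body, away from its mostly closed start. The window at the start had a peak in 7 hippocampus and 2 cortex libraries (Fisher's exact test, adjusted p = 0.197), and all of these were weak, at ranks of 107120 to 233593. The strongest window, 58.3 kb from the start near the 3′ end of the gene (chr15:6815736-6816236), ranked 6295 to 12313 in hippocampus, with a median of 9234. In cortex it ranked 23405 to 117042, with a median of 92041, and the value of 23405 was that of saline replicate 2. It was among the 50000 strongest peaks in 11 hippocampus and 1 cortex libraries (Fisher's exact test, adjusted p = 0.000212). Without that mouse it was so in 10 and 0 of 10 (Fisher's exact test, adjusted p = 8.57e-05).

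A second window of Osmr, 52.8 kb from the start (chr15:6821310-6821810), was among the 50000 strongest in 11 hippocampus and 2 cortex libraries (Fisher's exact test, adjusted p = 0.00107). Another, 16.6 kb from the start (chr15:6857465-6857965), was so in 11 and 0 (Fisher's exact test, adjusted p = 2.95e-05), with ranks of 20844 to 45978 in hippocampus and 60597 to 157145 in cortex. All 3 windows had a peak in all 22 libraries, so the tissues differed in how strong the peaks were and not in whether they were called. By presence, windows 12.6 kb from the start (chr15:6861511-6862011, 11 and 1 libraries), 21.9 kb from it (6 and 0) and in the flank within Rictor (11 and 0) were called for hippocampus and none for cortex. They were 3 (27.3%) of the 11 windows tested at Osmr, where 18.3% of all were called for hippocampus and 12.2% for cortex. The call at 21.9 kb was lost with the animal as a block (exact sign test, adjusted p = 0.0989). Only peaks within 20 kb of the gene body were counted, so those in Rictor may belong to either gene.

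**Figure D2:**
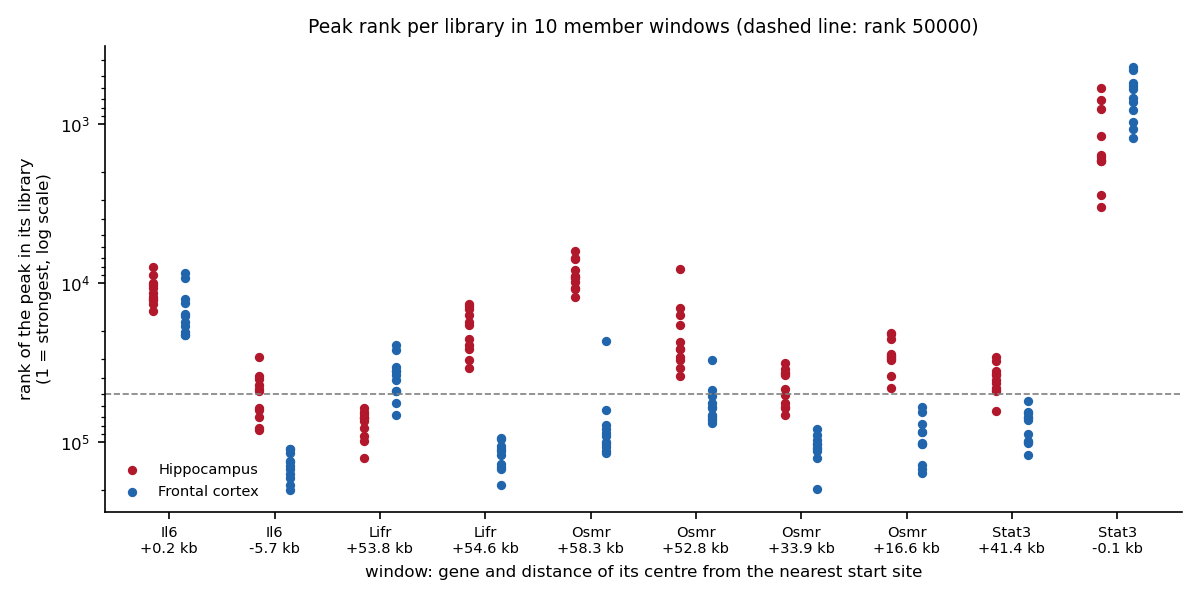
Rank of the peak in its library (log axis, rank 1 is the strongest) for windows of Osmr, Lifr and other members, with 1 point per library in hippocampus and frontal cortex. The strongest Osmr window lies between 6295 and 12313 in hippocampus and between 23405 and 117042 in cortex, and the neighbouring Lifr windows change order between the tissues.

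Stat3 encodes the transcription factor on which the family's signals converge. It lies at chr11:100886806-100939594 on the minus strand. Its locus held 13 to 18 peaks in hippocampus (median 14) and 13 to 20 in cortex (median 15). Scaled, the means were 5.52 ± 0.368 and 6.65 ± 0.970 per 100000 intervals (SD, n = 11 each), a difference of -1.13, higher in cortex in 10 of 11 mice (permutation test, adjusted p = 0.00260). This difference turned with the peaks used. Over the 50000 strongest peaks, scaled to 100000 of those peaks, it was 1.64 in the other direction (permutation test, adjusted p = 0.0469). Without scaling it did not pass the test (permutation test, adjusted p = 0.158). The start was the strongest window of all member starts, at ranks of 597 to 3357 in hippocampus and 438 to 1234 in cortex. A window 1.19 kb into the gene (chr11:100938096-100938596), which also lies at the start of the overlapping gene Gm46295, had a peak in 11 hippocampus and no cortex libraries (Fisher's exact test, adjusted p = 4.32e-05). Windows 48.9 kb (10 and 0) and 7.78 kb (11 and 3) from the start were also called for hippocampus, and windows 26.6 kb (0 and 10) and 18.1 kb (2 and 9) from it for cortex. The last of these lost the call with the animal as a block (exact sign test, adjusted p = 0.0601). Of 17 windows tested at Stat3, 17.6% were called for hippocampus and 11.8% for cortex, where 18.3% and 12.2% of all were.

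Socs3 encodes the feedback inhibitor of gp130 signalling. It lies at chr11:117966079-117970336 on the minus strand and had the densest locus, with 3.21 peaks per 10 kb. The locus held 9 to 15 peaks in hippocampus (median 12) and 14 to 19 in cortex (median 16). Scaled, the means were 4.67 ± 0.568 and 6.72 ± 0.699 per 100000 intervals (SD, n = 11 each), a difference of -2.04, higher in cortex in 11 of 11 mice (permutation test, adjusted p = 0.00013, which rests on the smallest p that the permutations can give). The scaled values of the tissues did not overlap. Over the 50000 strongest peaks the means, scaled to 100000 of those peaks, were 5.82 and 6.00, a difference of -0.182 (permutation test, adjusted p = 1).

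Of 14 windows tested at Socs3, 4 (28.6%) were present more often in cortex and none in hippocampus, where 12.2% and 18.3% of all were. All 4 lay outside the gene, as 18 of the 22 windows of this locus did. The called windows were 4.16 kb (0 and 8 libraries), 9.46 kb (3 and 11) and 21.4 kb (chr11:117947668-117948168, 0 and 10) after the start and 14.6 kb before it (4 and 11). Their adjusted p by Fisher's exact test ran from 0.000297 to 0.0156, and the last of them lost the call with the animal as a block (adjusted p = 0.0601). The windows at the Socs3 start were open in all 22 libraries. The strongest window of the locus was the start of the neighbouring gene Pgs1, so part of the count belongs to a neighbour.

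**Figure D3:**
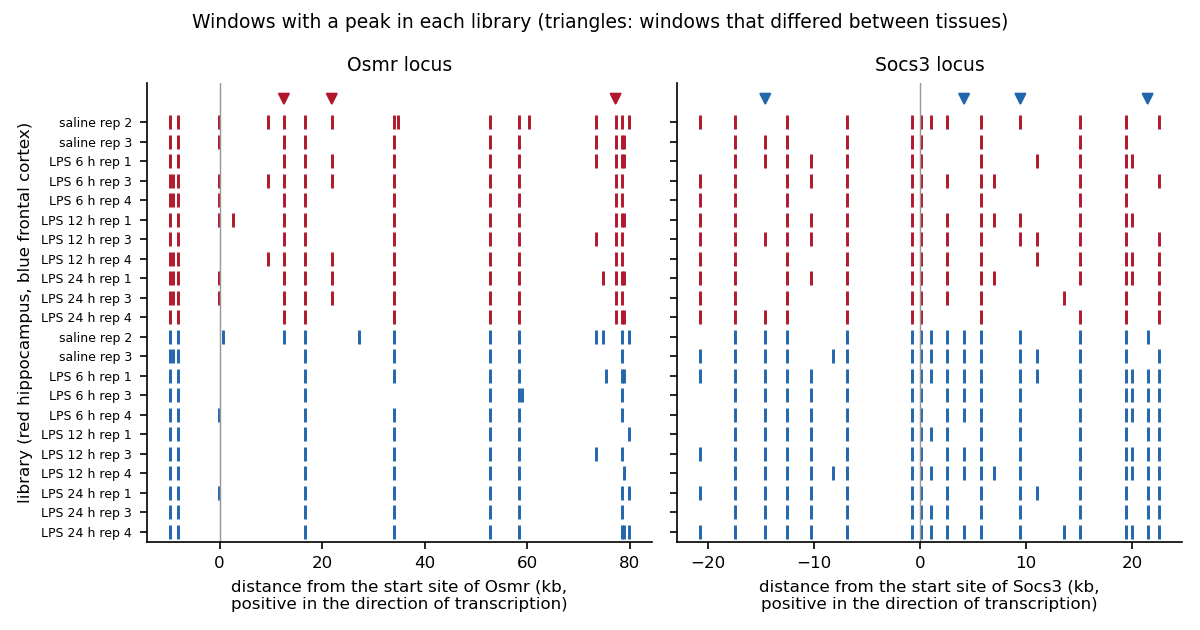
Peaks at the Osmr and Socs3 loci, 1 row per library grouped by tissue, plotted by distance from the gene's start in kb, with triangles over windows called between tissues. The Osmr calls fall in hippocampus, in the gene body and the Rictor flank, and the Socs3 calls fall in cortex, in the flanks.

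LPS was compared with saline within each tissue, 9 libraries against 2. Both saline mice were sampled at 6 h, so for the 12 and 24 h libraries LPS and time of sampling cannot be told apart. No member and none of the 20015 loci passed adjustment in either tissue. The smallest p that 55 splits can give is 0.0364, and 14557 loci would have to reach it before any could pass, so the design could not call a single gene. At an unadjusted p under 0.05, 4.02% of loci in hippocampus and 3.83% in cortex were past the threshold, and among the members 0 and 1. The 1 member was Il6 in cortex. Its locus had 1.13 and 1.37 peaks per 100000 intervals in the saline libraries. In the LPS libraries it had 2.05, 1.47 and 2.05 at 6 h, 1.38, 1.68 and 1.68 at 12 h and 1.88, 1.64 and 2.14 at 24 h. The LPS libraries were thus all above the saline ones, by 0.523 in the means (exact permutation test, p = 0.0364, adjusted p = 0.926), though the lowest LPS and highest saline values were close. Without saline replicate 2 the exact p was 0.200, the smallest that 10 libraries allow. Unscaled, the saline libraries held 3 Il6 peaks each and the LPS libraries 3 to 6 (exact p = 0.218). In hippocampus the Il6 locus had 1.49 ± 0.719 (SD, n = 2) with saline and 1.51 ± 0.226 (SD, n = 9) with LPS.

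Stat3 and Socs3, which the pathway itself is known to induce, did not pass the test after LPS either. Stat3 in cortex had 5.66 and 5.93 peaks per 100000 intervals with saline and means of 7.14 ± 1.10, 6.82 ± 1.29 and 6.57 ± 0.821 (SD, n = 3 each) at 6, 12 and 24 h. In hippocampus it had 5.72 ± 0.196 (SD, n = 2) with saline and 5.47 ± 0.390 (SD, n = 9) with LPS. Socs3 had 4.11 ± 0.173 (SD, n = 2) in hippocampus with saline and 4.80 ± 0.550 (SD, n = 9) with LPS, and 6.70 ± 1.48 and 6.72 ± 0.581 in cortex. A test of whether the response to LPS differed between the tissues gave no member an unadjusted p under 0.05 (lowest exact p = 0.0727, for Stat3).

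Among the LPS libraries, the 3 times were compared by an exact permutation test over all assignments of libraries to times. No locus passed adjustment. The smallest p that this test can give is 0.00357, and 1430 loci would have to reach it before any could pass. A gene that changed alone could thus not be called. At an unadjusted p under 0.05 were 5.30% of loci in hippocampus, with no member, and 7.44% in cortex, with Lif and Lifr. Lif in cortex had 4.09, 3.91 and 4.52 peaks per 100000 intervals at 6 h, 3.22, 3.78 and 3.36 at 12 h and 3.38, 2.46 and 2.85 at 24 h (exact permutation test, p = 0.0143, adjusted p = 0.580). Every 6 h library was above every later one, and the saline libraries, at 3.02 and 3.65, lay below all 6 h values. Lifr in cortex had means of 11.9 ± 0.362, 11.1 ± 0.217 and 10.7 ± 0.631 (SD, n = 3 each) at 6, 12 and 24 h (exact p = 0.0464, adjusted p = 0.623). Both were past 0.05 no longer when replicate numbers were kept as a block (exact p = 0.0833 each).

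**Figure D4:**
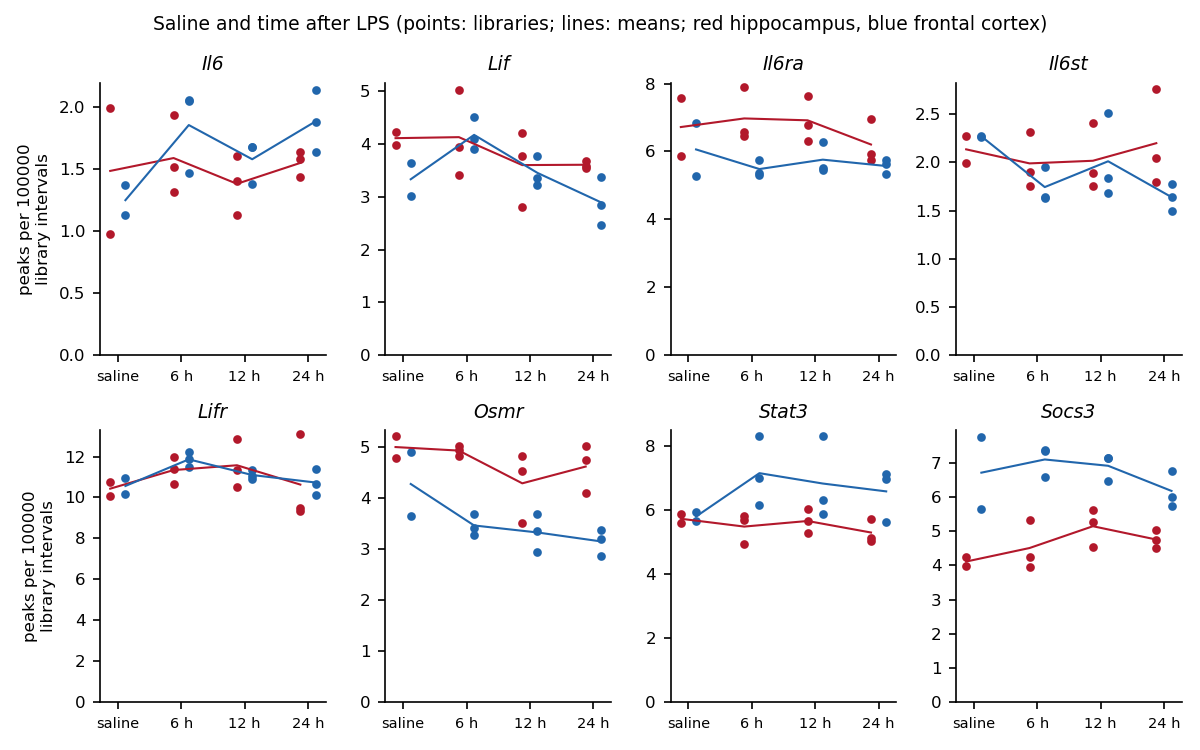
Peaks per locus per 100000 intervals for the 8 members in hippocampus and frontal cortex, with 1 point per library at saline and at 6, 12 and 24 h after LPS, and lines through the means. The points of Il6 in cortex lie at 1.13 and 1.37 with saline and between 1.38 and 2.14 with LPS, and those of Lif in cortex are highest at 6 h.

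Single windows that switched with LPS were counted without a test, as 3 libraries against 2 cannot reach 0.05. A window was gained at a time when no saline and all 3 LPS libraries had a peak, and lost in the reverse case. As saline was sampled at 6 h only, switches at 12 and 24 h may go with LPS or with time of sampling. In hippocampus, of 172 member windows with a peak, 1, 0 and 0 were gained at 6, 12 and 24 h, where 0.446%, 1.15% and 0.973% of all windows were, and 2, 1 and 5 were lost, where 1.31%, 1.23% and 1.40% of all were. In cortex, of 165, 2, 2 and 5 were gained, against 0.555%, 0.778% and 2.70% of all windows, and 1 was lost at each time, against 0.986%, 1.02% and 0.739%. The highest member shares were 3.03%, gained in cortex at 24 h, and 2.91%, lost in hippocampus at 24 h. Without the mouse saline replicate 2, the counts summed over times rose. In hippocampus 1 gained and 8 lost became 16 and 14, and in cortex 9 and 3 became 25 and 29. A single saline library makes the rule looser, so the counts can only rise. The rise therefore does not show what part this mouse had in them.

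A window gained at all 3 times lay 10.2 kb before the start of Socs3 (chr11:117979363-117979863). In cortex it had a peak in neither saline library and in all 9 LPS libraries, as did 0.164% of all cortex windows. In hippocampus it had a peak in no saline library and in 2, 2 and 1 of 3 LPS libraries at 6, 12 and 24 h, and 0.109% of hippocampus windows were in neither saline and all LPS libraries. It was a weak peak, past a -log10 q of 5 in 3 cortex libraries and no hippocampus library. In the opposite direction, a window 8.21 kb before the Stat3 start (chr11:100947496-100947996) had a peak in both hippocampus saline libraries and no LPS library, as did 0.296% of all windows. A window 4.64 kb into Lif (chr11:4261961-4262461), chosen after its values were seen, did the same in cortex, where 0.197% of all windows did. The cortex windows gained at 24 h included those of Il6 12.0 kb before the start, of Il6ra 40.4 kb and 25.4 kb from it and of Stat3 7.78 kb from it. All 4 of these were present in both hippocampus saline libraries.

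The authors' deposited tables of regions that differ from saline, made with csaw, list 2 regions at these genes in 6 comparisons. Both lie in the Stat3 body and were lower in hippocampus 12 h after LPS. The authors' deposited table gives an FDR of 0.0181 to chr11:100894801-100895210, which is 410 bp wide, and an FDR of 0.0389 to chr11:100888451-100888610, which is 160 bp wide. The first had a peak in 1 of 2 saline libraries and in no LPS library at 12 h, and the second in 1 saline and 1 LPS library. Both regions also lie within 20 kb of Stat5a. For that comparison the authors' deposited table lists 1211 regions up and 1873 down. Of 354202 hippocampus windows 0.527%, and 1 of 139 member windows, overlapped one that was down. The largest table, of cortex at 24 h, lists 4986 regions up and 554 down, and 1.49% of 328114 cortex windows overlapped one that was up. None of the 128 member windows did. These windows are fewer than those with a peak in the tissue that were counted for switching.

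The other genes of the pathway were compared in the same way, against the 16.0% of all loci called for hippocampus and 25.8% for cortex. Of 8 other ligands 1 had more peaks in cortex, Cntf (ciliary neurotrophic factor, a difference of -0.605 per 100000 intervals), and none in hippocampus. Of 4 other receptors, Il11ra1 (-1.47) and Cntfr (-1.01) had more in cortex. Of 7 kinases, STATs and a phosphatase, Jak2 (-1.33) did. Of 7 inhibitors, Cish (-1.47), Pias3 (-1.39), Ptpn1 (-1.32) and the large gene Ptprd (81.2 in hippocampus and 112 in cortex) did. The shedding proteases Adam10 and Adam17, which release receptor ectodomains, did not pass the test. Of 12 known STAT3 target genes, 5 had more peaks in cortex (Myc, Bcl3, Serpina3n, Mcl1 and Lcn2), and Fgg, a fibrinogen chain, had more in hippocampus, by 1.18. Gfap, the astrocyte filament gene, was not among them. Single windows at these genes were called in both directions: 11 for hippocampus and 7 for cortex of 75 tested at the ligands, 5 and 10 of 53 at the receptors, and 15 and 10 of 150 at the kinases, STATs and phosphatase. They were 67 and 95 of 498 at the inhibitors, 7 and 6 of 50 at the proteases and 9 and 5 of 103 at the STAT3 targets. Over all windows tested the shares were 18.3% and 12.2%.

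Summed peak numbers of cell type marker loci overlapped between the tissues, but single marker loci differed, in both directions. Over all loci, 16.0% were called for hippocampus and 25.8% for cortex. Of 6 astrocyte loci 2 had more peaks in hippocampus and 1 in cortex, with sums per 100000 intervals of 38.5 to 44.7 and 38.5 to 42.7. The 1 for cortex was Slc1a2, with scaled means of 16.0 in hippocampus and 17.2 in cortex (permutation test, adjusted p = 0.0230). The locus of Aqp4, the astrocyte water channel, held 5.09 ± 1.70 peaks in hippocampus and 1.18 ± 0.405 in cortex (SD, n = 11 each; permutation test on scaled numbers, adjusted p = 0.00013), and that of Gja1, a gap junction gene, held 5.64 ± 1.03 and 3.82 ± 1.33 (adjusted p = 0.0143). Of 8 microglial loci 2 had more in cortex, with sums of 32.3 to 37.2 in hippocampus and 34.7 to 41.1 in cortex. Of 7 endothelial and mural loci 2 and 1 were called, with sums of 25.5 to 35.8 and 26.6 to 31.7. They were Tek (7.91 ± 1.04 and 5.64 ± 1.75 peaks) and Rgs5 (9.73 ± 1.90 and 6.91 ± 1.81) for hippocampus, and Pdgfrb (12.1 ± 2.12 and 13.8 ± 1.54) for cortex. Of 7 leukocyte loci 1 and 1 were called, with sums of 12.3 to 14.4 and 11.9 to 14.7. Oligodendrocyte loci (2 and 4 of 6) had sums of 34.8 to 41.8 and 35.0 to 45.6. Neuronal loci (1 and 3 of 5) had 65.5 to 75.0 and 73.2 to 85.3, and striatal loci (1 and 5 of 9) had 28.8 to 34.5 and 32.8 to 43.2. The part of cell composition in the differences at Osmr, Il6ra, Stat3 and Socs3 was not tested.

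The loci most like a member over the 22 libraries, which share the split into tissues, were named where Pearson's r of the scaled peak numbers was over 0.8. For Socs3 they were Efna5 (r = 0.928), Ell2 (0.924) and Prss54 (0.923). For Osmr they were Olfr550 (0.896), Olfr551 (0.885) and Sh3rf1 (0.877). For Stat3 they were Klk1b5 (0.891), Neu2 (0.872) and Rnf223 (0.846), and for Il6ra St7 (0.837), Pigk (0.831) and Spon1 (0.830). Il6, Lif, Il6st and Lifr had no locus above 0.8, and none of the named loci is of the pathway lists.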

How the data were processed

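OMNI-ATAC-seq libraries were made from frozen hippocampus and frontal cortex, per the labels' protocols. GRCm38 (mm10), MACS2 2.2.7.1, Bowtie2 2.4.4, FastQC 0.11.9 and Trim Galore 0.6.7 are listed in the submitters' processing notes. A shift of reads for transposase binding is not given in those notes. The authors deposited 1 peak list per library, in which each peak has a score, -log10 p and q values and its fold (ratio) over background. These are the authors' values, and they served here to describe, rank or filter peaks inside 1 list. The authors deposited 6 tables of csaw regions, whose score was read as 10 times the -log10 of the FDR. The lists hold no read counts, so depth is unknown and no interval that needs depth is given.

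From these, distinct intervals were counted per locus and windows reaching 250 bp to either side were placed around summits, strongest first and without overlap. Ranks are by score. Distances are to the nearest start listed by RefSeq, and windows are given as in the gene body or flank, since exons were not used here. Tests are two-sided, with 100000 permutations for tissues, and with adjustment over all loci or windows. The animal pairs the tissues, as both libraries of a mouse carry its label (correlation of paired deviations from -0.00492 to 0.386). Each library is 1 mouse within its tissue. Scripts used Python 3.11.15, numpy 2.4.6, pandas 2.3.3 and scipy 1.17.1. On simulated data for the tissue comparison of 20015 loci, the permutation test recovered 32.0% of loci changed 1.5-fold and 87.0% of those changed 2-fold. The simulated counts were Poisson draws, and 100 loci were changed at each fold, taken from loci with more peaks than Il6. Far more loci were called in the real data, so these shares are not the power of the test there.

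All 8 members are described. The windows named at each are the strongest, the one nearest the start, up to 3 called per tissue, up to 2 that switch per direction and each region of the authors, and the text says where others were chosen after their values were seen. The members and lists were chosen with earlier results of these data known. Alternatives were unscaled peak numbers, peaks with -log10 q of 5 or more, the 50000 strongest peaks, a flank of 5 kb, the replicate block and leaving out each replicate.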

Additional observations from a re-analysis of the deposited data

How the results depend on the processing

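Peak lists without depth limit these results: a peak near the calling threshold can come and go with library quality. Member loci called for hippocampus were 2 and for cortex 2 under the main settings and with the animal as a replicate block. For cortex they became 1 without scaling, 1 with -log10 q of 5 or more and 0 over the 50000 strongest peaks, where hippocampus had 4 (Il6, Lifr, Osmr and Stat3). The Il6 call there rested on the window 5.69 kb before its start alone. Il6st gained a call for hippocampus with -log10 q of 5 or more, and with a flank of 5 kb Lif did for hippocampus and Il6 for cortex. Il6ra reversed to -0.170 with -log10 q of 5 or more, and Stat3 to 0.00737 there and to 1.64 over the 50000 strongest; the cause was not tested. Member windows called, 20 for hippocampus and 15 for cortex, became 18 and 9 with the replicate block, and 11 and 1 over the 50000 strongest peaks (9 and 1 without the mouse saline replicate 2, an alternative chosen after seeing the data), where fewer windows were tested. Leaving out 1 mouse gave 18 to 21 and 13 to 16. With -log10 q of 5 or more, switching windows summed over times were 2 gained and 2 lost in hippocampus and 5 gained and 2 lost in cortex. Without saline replicate 2 they were 16 gained and 14 lost in hippocampus and 25 and 29 in cortex, under a rule that a single saline library makes looser. Replicate numbers are shared between LPS times as numbers only, with correlations of paired deviations from -0.238 to 0.152, and with them as a block no member passed adjustment. Bases covered by peaks, also added after seeing the data, called 3 members for hippocampus (Il6 with them) and 2 for cortex. Over the 50000 strongest peaks 18.5% and 19.0% of all tested windows were called for hippocampus and cortex. For the other counts under alternatives, the shares over all windows or loci are not given here. Whether those shifts are particular to the members was not tested.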
